A study of Homo sapiens with 16 samples.

Results

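The subject is the dependence of a toxin response on culture format: how the change measured in each gene with 1-methyl-4-phenylpyridinium (MPP) in a silk-collagen scaffold (3D) compares with the change in a flat dish (2D). All 16 libraries of the series enter this comparison, and every gene that passed the filter on low values was a member: 16984 of the 19898 genes in the deposited table. The cells were SH-SY5Y, 1 human neuroblastoma line, differentiated for 15 days into what the submitters label dopamine-like neurons. The 4 groups of 4 libraries were untreated 2D, MPP-treated 2D, untreated 3D and MPP-treated 3D, and treated cultures received 1 mM MPP for 48 h from day 13. Whether the replicates are separate cultures is not stated, so a p-value speaks of the spread between these libraries only. Cells in 2D were detached with Accutase while scaffolds went whole into tubes, so culture format and handling cannot be told apart.

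MPP is the active metabolite of the neurotoxin MPTP. It enters catecholamine neurons through monoamine transporters, is stored in vesicles by the vesicular transporters, and inhibits complex I of the mitochondrial respiratory chain, for which it is used as a cell model of Parkinson disease. Cells deprived of mitochondrial respiration are known to lean on glycolysis and to engage the integrated stress response, in which the translation factor eIF2alpha is phosphorylated and the transcription factor ATF4 turns on amino acid synthesis and transport genes.

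For each gene the difference of effects was the log2 change with MPP in 3D minus the log2 change with MPP in 2D, on log2(normalised count + 1), which understates changes of genes with few reads. A positive difference means that MPP left the gene higher in 3D than the 2D change would have, either by a larger rise or by a smaller fall. One limma fit over the 4 groups gave the effect in each culture and their difference, with Benjamini-Hochberg adjustment over all 16984 genes, and a gene was called at an adjusted p under 0.05. Normalised counts are given below library by library, in the order of replicates 1 to 4, and means carry the SD over 4 libraries. They are not divided by gene length, so levels are compared between groups and not between genes.

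The libraries held 24589435 to 46359070 reads, the fewest in untreated 3D. Mitochondrially encoded mRNAs took 9.62% ± 1.65 of reads in untreated 2D, 0.874% ± 0.0754 in MPP-treated 2D, 4.47% ± 1.61 in untreated 3D and 1.24% ± 0.207 in MPP-treated 3D (SD, n = 4), so the 4 groups do not share a composition. Equal totals over nuclear genes, in place of the deposited scaling, moved the median difference of all genes by 0.10. Chosen as standing apart within their groups were 3 libraries: untreated 3D replicate 1 in its mitochondrial share (6.84%), untreated 3D replicate 3 on the principal component PC4 and MPP-treated 3D replicate 3 in cell-cycle genes. Results that rest on them are given with and without them. They were not the only such libraries. By chi-square per degree of freedom between pairs, MPP-treated 3D replicate 1 was 25.9 to 35.1 from its group, whose other pairs lay at 17.5 to 21.5. MPP-treated 2D replicate 4 was at 15.2 to 23.5, against 6.58 to 9.15. Both were left out only singly. Of the neuron markers, TH, DDC, DBH, SLC18A2, MAP2 and TUBB3 were all read in every library, and SLC6A3, which encodes the dopamine transporter, was not analysed here. Of markers of other cells, the Schwann cell factor SOX10, the leukocyte antigen PTPRC and the endothelial PECAM1 had group medians of at most 1.81, 6.57 and 1.39 normalised counts. The sum of 13 blood, mast cell and endothelial markers nevertheless differed between groups: in 2D it lay between 429.7 and 643 without MPP and between 656 and 716 with it, and in 3D between 4031 and 5088 without and between 2883 and 3731 with it. The near-identical mast cell tryptase genes TPSAB1 and TPSB2 had medians of 0 in both 2D groups, of 1635 and 1363 in untreated 3D and of 819 and 762 in MPP-treated 3D. CD68, a lysosomal protein of macrophages, had medians of 112 and 248 in untreated and treated 2D and of 1046 and 1232 in untreated and treated 3D. The tryptases and CD68 made up most of the 3D sum. KIT and CD14 of the same list did not follow. In untreated and treated 2D and untreated and treated 3D their medians were 266, 244, 231.5 and 284, and 41, 45.8, 58.6 and 39. VWF and KDR were higher in untreated 3D than in untreated 2D (79.6 against 29.2, and 74.5 against 42.3). The sum of 10 glia markers was also highest in MPP-treated 3D (10944 to 16393, against 7957 to 9355 in untreated 3D and 5584 to 8909 in 2D). The receptor gene NGFR carried this rise, with 3D medians of 5140 without and 10990 with MPP. Other glia markers went both ways in 3D. Medians fell from 2564 to 1187 for PMP22 and from 143 to 88.3 for S100B, and rose from 40.8 to 70.6 for AQP4. Mesenchymal and fibroblast markers, 14 in number, had the largest sums, 23435 to 27827 in 2D and 16518.5 to 19620 in 3D. Among them TWIST1 had group medians of 3147 to 5807 and LUM of 875 to 2321, while PRRX1, YAP1 and AXL had medians of at most 12.1. The part of such cells in the results was not tested, and in bulk RNA fewer cells of a type and less RNA per cell cannot be told apart.

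The MPP effect differed between the cultures in 2602 genes, 15.3% of those tested. The difference was higher in 1189 genes (7.00%) and lower in 1413 (8.32%), and it was at least 2-fold in 912. With equal totals over nuclear genes the split turned the other way, 2128 higher and 1053 lower, so the balance of signs over all genes depends on the scaling. The 2D and 3D effects, which share no library, had a Pearson correlation of 0.394 and a Spearman correlation of 0.439 across the 16984 genes, which are not independent replicates. In 2D 5866 genes were called for MPP itself (34.5%), 2998 up (17.7%) and 2868 down (16.9%). In 3D 5879 were called (34.6%), 2882 up (17.0%) and 2997 down (17.6%), and 8709 genes were called in either culture and 3036 in both.

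Of the 3036 genes called in both cultures, 2702 moved the same way and 334 moved in opposite directions, 168 up in 3D and down in 2D (0.989% of the genes tested) and 166 down in 3D and up in 2D (0.977%). A response called in 3D and not in 2D, with the difference called, was found for 926 genes (5.45%), 353 up (2.08%) and 573 down (3.37%). For 691 of them the 95% interval of the 2D effect also lay within a 1.5-fold change in either direction. The reverse, a response called in 2D and not in 3D, was found for 924 genes (5.44%), 421 up (2.48%) and 503 down (2.96%), and for 686 of them the interval of the 3D effect lay within 1.5-fold. A further 349 genes (2.05%) moved the same way by different amounts: 66 rose more in 3D (0.389%), 88 rose more in 2D (0.518%), 132 fell more in 3D (0.777%) and 63 fell more in 2D (0.371%). In 69 genes (0.406%) the difference alone was called. An alike response, called in both cultures with the interval of the difference within 1.5-fold, was found for 1650 genes (9.72%). For 3823 genes (22.5%) the effect was called in 1 culture and the difference was not, and 703 (4.14%) were called the same way in both without a bound on the difference, so these say nothing of culture dependence. In 8206 genes (48.3%) nothing was called. The 573 genes that fell in 3D and not in 2D started high there: their median normalised count was 1285 in untreated 3D against 680 in MPP-treated 3D, 738 in untreated 2D and 742 in MPP-treated 2D. The untreated 3D values also enter the rule that chose this class, so the high start follows in part from the choice.

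**Figure D1:**
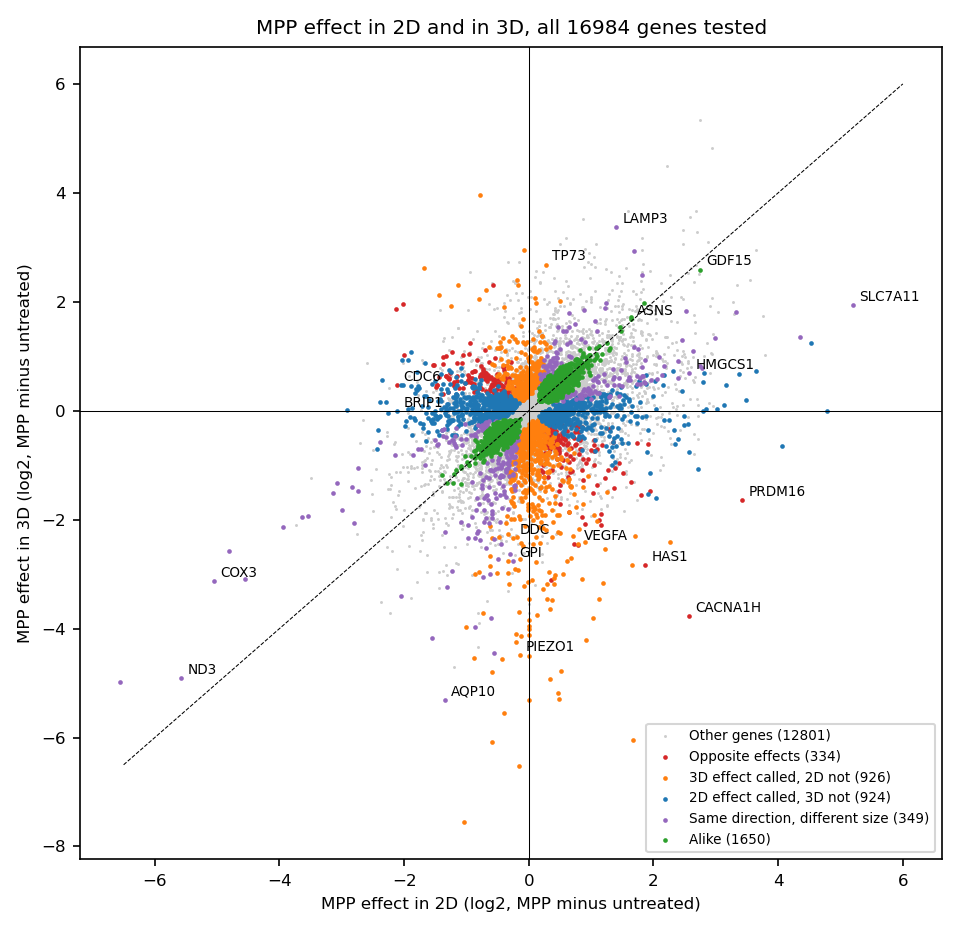
MPP effect in 2D (x axis) against MPP effect in 3D (y axis), both as log2 change on normalised count + 1, 1 point for each of the 16984 genes tested, coloured by class, with the line of equal effects dashed. The 334 genes of opposite effects lie in the upper left and lower right, VEGFA and CACNA1H among the latter, while ASNS and GDF15 lie on the line of equal effects.

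Gene lists grouped by function differed strongly in how many members were culture dependent. Against 15.3% of all genes, the difference was called in 13 of 13 mitochondrially encoded mRNAs, 28 of 30 DNA replication genes, 28 of 30 mitosis genes, 21 of 24 genes of glycolysis and glucose uptake, 21 of 24 genes of cholesterol synthesis and uptake, 19 of 30 hypoxia response genes outside glycolysis, 13 of 21 endoplasmic reticulum (ER) chaperone genes and 8 of 13 fatty acid synthesis genes. It was called in 1 of 77 cytosolic ribosomal protein genes, 2 of 35 nuclear complex I subunits and 0 of 23 genes of the NRF2 antioxidant response (6 rose and 4 fell in 2D, 8 and 4 in 3D). The ribosomal differences were small but below 0 in 72 of 77 genes, with a median of -0.21 against -0.019 over all genes. Of these 77 genes, 14 rose in 2D, while 2 rose and 6 fell in 3D. The lists and the members named by role were chosen with results of these data known, so their counts describe and do not test.

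**Figure D2:**
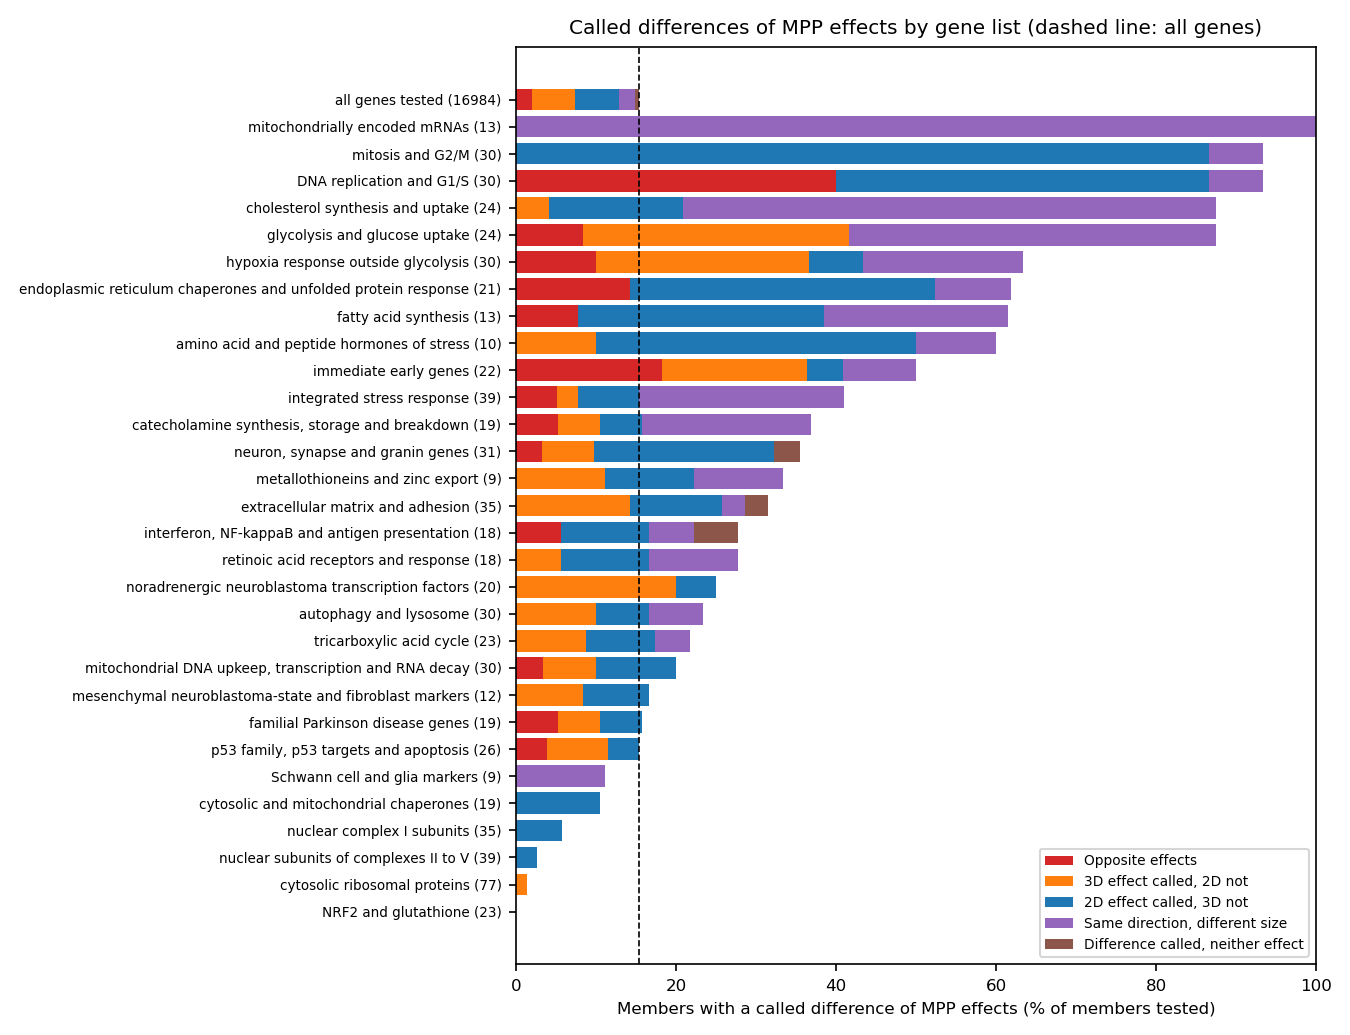
Share of the tested members of each gene list whose MPP effect differed between the cultures (x axis, percent), stacked by the kind of difference, for lists of 8 or more tested members. The dashed line marks the 15.3% of all genes tested, which the mitochondrial, cell-cycle, glycolysis and cholesterol lists exceed several times over.

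The mRNAs made from mitochondrial DNA, which encode core subunits of the respiratory chain, fell in both cultures and fell less in 3D. All 13 were called down in 2D (median log2 change -3.54) and in 3D (median -1.94), and all 13 differences were higher, from 0.66 to 2.22 with a median of 1.62. COX3 (MT-CO3), a subunit of cytochrome c oxidase, read 301641, 446864, 386693 and 376653 normalised counts in untreated 2D and 11914, 10568, 10343 and 12631 with MPP. The 3D libraries read 225836, 121790.0, 129148 and 146338 without and 20784, 16147, 17498 and 15205 with MPP. The groups did not overlap in either culture, untreated 2D was the highest, and the treated groups lay close to each other compared with the untreated ones. The effect was -5.05 in 2D and -3.13 in 3D and the difference 1.92 (SE 0.21, limma adjusted p = 6.84e-07). COX2 (MT-CO2), of the same complex, had effects of -4.80 in 2D and -2.58 in 3D and the largest difference of the 13, 2.22 (SE 0.25, limma adjusted p = 8.9e-07). ND1 of complex I fell 8.45-fold in 2D and 2.49-fold in 3D, and its difference was 1.76 (SE 0.23, limma adjusted p = 8.9e-06).

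Complex I mRNAs did not move as one. ND3 fell most, from 44146 ± 8155 to 918 ± 91.1 in 2D and from 23714 ± 4858 to 777 ± 84.7 in 3D, and its difference of 0.66 (SE 0.18, limma adjusted p = 0.0152) was the smallest of the 13. ND6, the only mRNA of the list encoded on the other mitochondrial DNA strand, had effects of -3.54 in 2D and -1.94 in 3D and a difference of 1.60 (SE 0.24, limma adjusted p = 5.23e-05). Untreated 3D replicate 1, the library of high mitochondrial share, was the highest of its group for COX3, COX2, ND1, ND3 and ND6. With the 3 libraries that stood apart left out, all 13 differences were still called. Nuclear subunits of complex I behaved otherwise: 2 of 35 differed, both lower, NDUFA10 among them, with a median difference of -0.029, and under equal nuclear totals these 2 were not called and 3 others were higher. Of 39 nuclear subunits of complexes II to V, 1 differed.

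Glycolysis and glucose uptake showed the opposite sign. Of 24 tested genes, 21 fell in 3D and none rose, while in 2D 12 fell and 2 rose. The difference was lower in 21, with a median of -1.25 over the list against -0.019 over all genes. GPI, which converts glucose-6-phosphate to fructose-6-phosphate, read 36093, 38171, 45875 and 37107 in untreated 3D and 5793, 5708, 5677 and 5843 with MPP. The 2D libraries read 7991, 7398, 7194 and 7028 without and 6055, 6220.1, 6199 and 6336 with MPP. Untreated 3D thus stood far above the other 3 groups, and the treated groups did not overlap but differed little. GPI fell 6.80-fold in 3D and 1.19-fold in 2D, and the difference was -2.51 (SE 0.10, limma adjusted p = 4.83e-14), the largest of the list. ALDOA, the aldolase that splits fructose-1,6-bisphosphate, fell from 63366 ± 3699.9 to 11632 ± 456 in 3D and from 16549.7 ± 1418 to 12185 ± 485 in 2D, a difference of -2.01 (SE 0.094, limma adjusted p = 9.01e-13).

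The same levels recurred through the pathway: high without MPP in 3D, and with MPP near those of treated 2D. HK2, the hexokinase that traps glucose in the cell, averaged 10308 ± 1192 in untreated 3D, 1664 ± 174 in treated 3D, 2284 ± 111 in untreated 2D and 1862 ± 41.6 in treated 2D. Its difference was -2.33 (SE 0.12, limma adjusted p = 2.25e-12). LDHA, which makes lactate from pyruvate, fell 7.73-fold in 3D and 2.35-fold in 2D, to 4104 ± 217 and 3989 ± 171. Its difference was -1.72 (SE 0.10, limma adjusted p = 3.09e-11). PGK1, which makes ATP in the pathway, fell 4.14-fold in 3D and 1.37-fold in 2D, and its difference was -1.60 (SE 0.10, limma adjusted p = 9.84e-11). LDHB, the lactate dehydrogenase subunit that favours pyruvate, was not called in either culture (-0.13 in 2D and 0.063 in 3D), nor was its difference, 0.19 (SE 0.081, limma adjusted p = 0.127). A 2D fall of LDHB was called with equal nuclear totals, quantile normalisation or array weights (limma adjusted p = 0.0182 to 0.0466), and a 3D rise with equal library totals (limma adjusted p = 0.0446). Under equal nuclear totals and under quantile normalisation the LDHB difference was called, with limma adjusted p = 0.0101 and 0.0150.

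Transport of glucose and lactate showed other forms of the same dependence. The glucose transporter gene SLC2A1 read 1125, 1068, 1026 and 980.2 and, with MPP, 1146, 1237, 1329.6 and 1200.2 in 2D, a small rise of 0.23 (SE 0.077, limma adjusted p = 0.0275). In 3D it read 3935, 4647, 4637 and 4513 and 1916, 2112, 2185 and 1929.9, a fall of 2.18-fold. The groups did not overlap in either culture, and the difference was -1.35 (SE 0.11, limma adjusted p = 1.04e-08). The 2D rise of SLC2A1 was not called with equal nuclear totals, or without any 1 of untreated 2D replicates 3 or 4 or MPP-treated 2D replicates 2 or 3 (limma adjusted p = 0.0593 to 0.0977). PFKP was the other glycolysis gene of opposite effects, and under equal nuclear totals, without untreated 2D replicate 3 or without MPP-treated 2D replicate 2, 0 of the 24 genes had such effects. The lactate exporter SLC16A3 fell 2.99-fold in 3D, while its 2D effect was -0.057 with a 95% interval of -0.32 to 0.21 and overlapping groups.

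Genes of the response to low oxygen outside glycolysis followed. This response is driven by the hypoxia-inducible factors HIF1A and EPAS1, which bind a short core motif near their targets. Of 30 tested genes, 21 fell and 1 rose in 3D, against 11 and 6 in 2D, and the difference was lower in 18 and higher in 1, with a median of -0.80. The number of falls in 2D was 6 with equal library totals. VEGFA, a secreted angiogenic factor, read 4315, 4879.8, 4912 and 4784 in untreated 2D and 8425, 8975, 8127 and 7192 with MPP. Its 3D counts were 46888, 35444, 35928 and 35993 without and 7513, 7671, 6222 and 6563 with MPP. No groups overlapped within a culture, and replicate 1 was the highest untreated 3D library. VEGFA thus rose 1.73-fold in 2D and fell 5.5-fold in 3D, a difference of -3.25 (SE 0.13, limma adjusted p = 5.45e-14), and its treated means were 8179.9 in 2D and 6992 in 3D.

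NDRG1 and DDIT4 were the other hypoxia genes of opposite effects. NDRG1, a stress-responsive gene, rose from 1613 ± 117 to 2549.8 ± 152 in 2D and fell from 7038 ± 918 to 3193 ± 241 in 3D, a difference of -1.80 (SE 0.12, limma adjusted p = 4.09e-10). DDIT4, an inhibitor of mTORC1 signalling, rose 2.43-fold in 2D and fell 1.27-fold in 3D, a difference of -1.62 (SE 0.12, limma adjusted p = 2.77e-09). BNIP3, a mitophagy receptor, and P4HA1, a collagen prolyl hydroxylase, fell in both cultures and more in 3D, with differences of -1.14 (SE 0.10, limma adjusted p = 3.34e-08) and -1.47 (SE 0.16, limma adjusted p = 9.45e-07). The 2D falls of GPI and HK2 were not called with equal library totals (limma adjusted p = 0.0893 and 0.0834), that of BNIP3 was not called with equal library totals, or without untreated 2D replicate 3 (limma adjusted p = 0.0532 to 0.183), and that of P4HA1 was not called with equal library totals, or without any 1 of untreated 2D replicates 1, 2 or 3 or MPP-treated 2D replicates 2 or 3 (limma adjusted p = 0.0548 to 0.112). The 3D falls and the differences of these 4 genes were called in each of these alternatives.

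EPO, erythropoietin, is a classical hypoxia gene whose oxygen response element lies in a distal enhancer. It read 203, 207, 171 and 239 in untreated 3D and 10.8, 3.57, 5.56 and 1.84 with MPP, with no overlap. In 2D it stood at 1.72, 0, 3.14 and 3.18 without and 3.23, 5.39, 0 and 5.28 with MPP, a few reads at most, so a 2D change was not detectable at this depth and the size of the fitted difference depends on the pseudocount. STC1, a secreted glycoprotein, fell from 841 ± 196 to 65.6 ± 7.94 in 3D and was also nearly silent in 2D. The mRNAs of the factors themselves did not follow the other genes of the list, and the factor proteins were not measured. HIF1A mRNA rose alike in both cultures (0.86 in 2D and 0.78 in 3D, difference -0.074 (SE 0.15, limma adjusted p = 0.796)), and EPAS1 was the 1 gene of the list whose difference was higher. EPAS1 fell from 5531 ± 237 to 3236 ± 57.5 in 2D and read 15703, 20579.6, 25505 and 20956 in treated 3D against 24876, 25616, 26397 and 23127 in untreated 3D, where the groups overlapped. Its difference was 0.48 (SE 0.13, limma adjusted p = 0.0158), and its 3D fall, at limma adjusted p = 0.0188, was not called with equal library totals, equal nuclear totals or quantile normalisation, or without MPP-treated 3D replicate 1 (limma adjusted p = 0.0643 to 0.179).

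The promoters of GPI, LDHA and EPO are shown because these genes span the dependence: expressed in both cultures, or almost only in the untreated scaffold. Each is 250 bases before to 50 after the RefSeq start in build GRCh38.p14, 5′ to 3′ on the gene's strand, with the letters ACGTG, the core of the hypoxia response element, in capitals on either strand. The GPI window is chr19:34364742-34365041 on the plus strand, LDHA chr11:18394313-18394612 on the plus strand and EPO chr7:100720218-100720517 on the plus strand.
GPI: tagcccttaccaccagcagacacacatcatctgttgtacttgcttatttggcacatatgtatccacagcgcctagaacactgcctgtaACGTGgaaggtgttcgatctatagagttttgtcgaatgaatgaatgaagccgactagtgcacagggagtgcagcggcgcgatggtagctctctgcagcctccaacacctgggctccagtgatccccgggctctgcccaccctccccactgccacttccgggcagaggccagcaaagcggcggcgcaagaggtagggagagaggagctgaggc
LDHA: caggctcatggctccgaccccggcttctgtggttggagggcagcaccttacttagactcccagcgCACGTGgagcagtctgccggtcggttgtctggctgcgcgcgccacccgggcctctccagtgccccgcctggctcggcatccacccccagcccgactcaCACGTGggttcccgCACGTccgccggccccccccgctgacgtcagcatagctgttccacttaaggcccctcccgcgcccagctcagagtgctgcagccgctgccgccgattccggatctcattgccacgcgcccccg
EPO: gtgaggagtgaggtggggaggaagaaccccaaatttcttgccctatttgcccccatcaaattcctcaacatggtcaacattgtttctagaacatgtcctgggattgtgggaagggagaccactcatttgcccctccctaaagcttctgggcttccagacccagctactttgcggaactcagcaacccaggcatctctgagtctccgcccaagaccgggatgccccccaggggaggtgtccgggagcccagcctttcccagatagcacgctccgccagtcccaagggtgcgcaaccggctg
The core stood once in GPI, 162 bases before the start. In LDHA it matched 5 times on the 2 strands (at -185, -184, -87, -86 and -73), and matches 1 base apart overlap because the letters CACGTG read the same on both strands. No ACGTG stood in the EPO window. It was found in 8 of 22 promoters of the glycolysis list (36.4%) and 12 of 25 of the hypoxia list (48%), against 25.2% of the 13114 tested genes with a promoter. A match is a description of letters and not a binding site.

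Genes of the integrated stress response rose with MPP in both cultures, some of them by similar amounts. Of 39 tested genes, 33 rose and none fell in 2D, and 32 rose and 3 fell in 3D. For 14 of the 39 the response was alike, against 9.72% of all genes. An alike response needs both effects called, which held for most of this list but for few genes at large. Of the 2702 genes called the same way in both cultures, 1650 were alike. The difference was called in 41.0% of the list, against 15.3% of all genes, so the list was not unusually independent of culture. Asparagine synthetase, ASNS, read 2279.9, 2347, 2243 and 2217 and 7288, 7329.5, 6769 and 6934 in 2D without and with MPP. Counts in 3D were 3036, 3028, 3162 and 3044 and 10205, 9776, 9604 and 9854. It rose by 1.64 in 2D and 1.68 in 3D on the log2 scale without overlap, and the difference was 0.045 with a 95% interval of -0.12 to 0.21. PSAT1, an enzyme of serine synthesis, rose by 0.92 and 0.99, with a difference of 0.064 (95% interval -0.18 to 0.31). AARS1, the alanyl-tRNA synthetase, rose by 1.64 and 1.73, and GDF15, a secreted stress hormone, by 2.74 and 2.59.

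The remaining members did not share 1 direction of dependence: the difference was lower in 13 and higher in 3. Several of the 13 started higher in untreated 3D. CHAC1, which degrades glutathione, read 153, 158, 223 and 144 and 701, 1055, 911 and 905 in 2D without and with MPP, and 1173, 1162, 1457 and 1351 and 1587, 2115, 2051 and 2079.9 in 3D. It rose 5.26-fold in 2D and 1.52-fold in 3D without overlap, a difference of -1.79 (SE 0.20, limma adjusted p = 8.37e-07), and untreated 3D already exceeded every treated 2D library. ATF4 rose from 3787 ± 186 to 7953 ± 190.1 in 2D. In 3D it averaged 9233 ± 521 without and 10272 ± 464 with MPP, an effect of 0.15 (SE 0.06, limma adjusted p = 0.0514), and the difference was -0.92 (SE 0.085, limma adjusted p = 8.07e-08). The 3D rise of ATF4 was called with equal library totals, equal nuclear totals, quantile normalisation, only genes of a mean of 50 or more, array weights or DESeq2, or without any 1 of untreated 3D replicate 4 or MPP-treated 3D replicate 2 (adjusted p, by limma unless another tool is named, 0.00282 to 0.0484). SLC7A5, the large neutral amino acid transporter, rose from 4039 ± 228 to 11625 ± 575 in 2D and stood at 24279 ± 261 and 26399 ± 664 in 3D. Its difference was -1.40 (SE 0.081, limma adjusted p = 2.86e-11). The 3D libraries of SLC7A5 did not overlap, and its small 3D rise (0.12, 95% interval 0.0018 to 0.24) was called with equal library totals, equal nuclear totals or quantile normalisation (limma adjusted p = 0.0034 to 0.0164).

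SLC7A11, the cystine importer, had the largest difference of the list. It read 6.89, 4.11, 6.28 and 39.2 in untreated 2D, where replicate 4 stood far above the rest, and 434, 341, 333 and 430.3 with MPP. Its counts in 3D were 66.5, 133, 164 and 131 and 385, 429, 579.7 and 438. The treated groups overlapped in level while the untreated ones did not, and the difference was -3.26 (SE 0.59, limma adjusted p = 0.000393). DDIT3, the pro-apoptotic factor CHOP, rose 5.72-fold in 2D and 3.56-fold in 3D, a difference of -0.68 (SE 0.16, limma adjusted p = 0.00574), which was not called with the 3 libraries that stood apart left out (limma adjusted p = 0.0524).

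SHMT2 and STC2 turned. SHMT2, a mitochondrial enzyme of serine and folate metabolism, rose from 1062 ± 57.9 to 1709 ± 114 in 2D and fell from 4494 ± 231 to 2083 ± 193 in 3D, a difference of -1.80 (SE 0.11, limma adjusted p = 9.1e-11). STC2, a secreted glycoprotein, rose 3.33-fold in 2D and fell 1.51-fold in 3D, a difference of -2.33 (SE 0.17, limma adjusted p = 2e-09). In neither gene did treated and untreated libraries of a culture overlap. TRIB3, a pseudokinase that dampens the response, was 1 of the 3 genes with a higher difference and rose in 3D by 1.47 against 1.10. Its difference, 0.37 (SE 0.11, limma adjusted p = 0.0207), was not called without any 1 of untreated 2D replicate 2 or MPP-treated 2D replicate 3, or with the 3 libraries that stood apart left out (limma adjusted p = 0.0509 to 0.0582). ATF5 and WARS1 were the other 2.

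**Figure D3:**
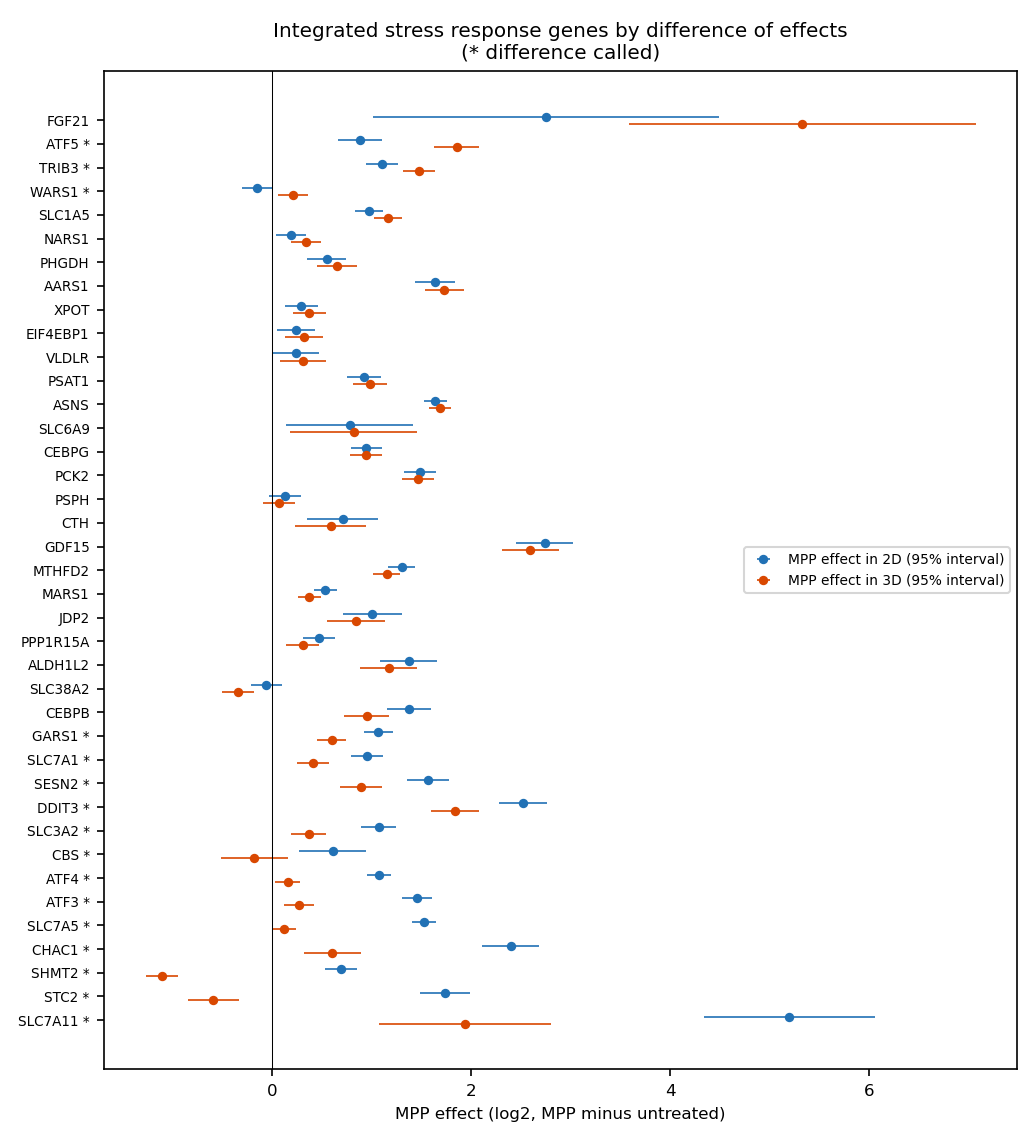
MPP effect (x axis, log2 change on normalised count + 1) in 2D and in 3D with 95% intervals for each of the 39 tested genes of the integrated stress response (y axis), with an asterisk where the difference was called. ASNS and PSAT1 sit at the same place in both cultures, SLC7A11 and CHAC1 are further right in 2D, and SHMT2 and STC2 fall on opposite sides of 0.

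The promoters of ASNS and CHAC1 are set side by side because 1 gene responded alike and the other did not. The window is the same as above, chr7:97872359-97872658 on the minus strand for ASNS and chr15:40953221-40953520 on the plus strand for CHAC1, with capitals for TGATGNAA, the element of ATF4 and CEBP factors, on either strand.
ASNS: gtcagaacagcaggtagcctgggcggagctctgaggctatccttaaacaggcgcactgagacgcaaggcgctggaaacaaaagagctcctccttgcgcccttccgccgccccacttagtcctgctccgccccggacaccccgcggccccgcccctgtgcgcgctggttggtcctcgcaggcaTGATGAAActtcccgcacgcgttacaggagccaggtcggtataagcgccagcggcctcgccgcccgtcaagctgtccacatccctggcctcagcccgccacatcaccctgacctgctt
CHAC1: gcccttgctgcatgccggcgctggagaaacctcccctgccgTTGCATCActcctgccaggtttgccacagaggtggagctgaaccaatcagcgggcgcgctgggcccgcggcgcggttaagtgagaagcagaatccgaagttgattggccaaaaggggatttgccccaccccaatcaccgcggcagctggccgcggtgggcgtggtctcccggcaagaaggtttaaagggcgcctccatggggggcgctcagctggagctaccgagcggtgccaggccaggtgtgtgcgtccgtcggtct
Each held the element once, 68 bases before the start in ASNS and 209 before in CHAC1, there on the other strand. It stood in 9 of 34 promoters of the list (26.5%) against 1.81% of the tested genes with a promoter. SLC7A11, the member of largest difference, had no entry in the promoter table.

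Cholesterol synthesis and uptake rose in both cultures and rose more in 2D. These genes are targets of SREBF2, a membrane-bound factor released when sterols in the ER run low. Of 24 tested genes, 22 rose and 1 fell in 2D, and 18 rose and 1 fell in 3D. The difference was lower in 21 and higher in none, with a median of -1.13, and medians of the effects were 1.49 in 2D and 0.52 in 3D. HMGCS1, which makes HMG-CoA for the pathway, read 7856, 7180.4, 7575 and 7522 in untreated 2D and 44018, 44886, 43171 and 47787 with MPP. The 3D groups read 8566, 10118, 10067 and 8681 and 13693, 14699, 17565 and 14438. No groups overlapped within a culture, the untreated groups were near each other, and treated 2D stood highest. HMGCS1 rose 5.97-fold in 2D and 1.61-fold in 3D, a difference of -1.89 (SE 0.11, limma adjusted p = 2.27e-11). Here, unlike in glycolysis, the contrast lay in the treated groups.

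Other genes of the route also rose more in 2D. MVD, which makes isopentenyl diphosphate, had the largest difference, -1.93 (SE 0.15, limma adjusted p = 2.7e-09), rising from 2331 ± 236 to 15629 ± 801 in 2D and from 3161 ± 407 to 5607 ± 970.4 in 3D. SQLE, the squalene epoxidase, rose 3.45-fold in 2D and 1.40-fold in 3D. DHCR7, of the last step, rose from 5456 ± 162 to 23956 ± 1039.8 in 2D and from 9466 ± 513 to 14927 ± 600.1 in 3D, a difference of -1.48 (SE 0.082, limma adjusted p = 1.8e-11). INSIG1, which holds the SREBF2 protein in the ER, had a difference of -1.18 (SE 0.12, limma adjusted p = 4.23e-07). SREBF2 mRNA itself rose 2.19-fold in 2D and 1.26-fold in 3D.

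Fatty acid synthesis genes, targets of the related factor SREBF1, went the same way with smaller effects: 11 of 13 rose in 2D and 4 in 3D, and the difference was lower in 8 and higher in none, with a median of -0.51. FASN, the fatty acid synthase, rose from 31036 ± 2473 to 129548 ± 9846 in 2D and from 39425 ± 3662 to 58690.1 ± 4654 in 3D, a difference of -1.49 (SE 0.11, limma adjusted p = 3.93e-09). ACSS2, which makes acetyl-CoA from acetate, read 1593, 1505, 1412 and 1556 and 3509.6, 3310.4, 3393 and 3448 in 2D, and 1304, 1266, 1423 and 1360.3 and 1333, 1460.2, 1362 and 1308 in 3D. It rose 2.25-fold in 2D without overlap, while the 3D groups overlapped and the 3D effect was 0.029 with a 95% interval of -0.11 to 0.17.

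The MVD promoter, of the cholesterol gene with the largest difference, is at chr16:88663042-88663341 on the minus strand.
MVD: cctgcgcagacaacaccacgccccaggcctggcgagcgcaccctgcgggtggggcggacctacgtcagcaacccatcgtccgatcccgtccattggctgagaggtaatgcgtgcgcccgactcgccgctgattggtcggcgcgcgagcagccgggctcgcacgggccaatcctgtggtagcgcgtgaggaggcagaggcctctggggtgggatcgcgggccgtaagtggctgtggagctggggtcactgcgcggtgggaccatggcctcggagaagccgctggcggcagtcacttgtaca
The letters TCACNCCA, 1 form of the sterol regulatory element, did not stand in it, and they stood in 3 of 18 promoters of the list (16.7%) and in 3.29% of the tested genes with a promoter. The CCAAT box stood in 15 of these 18 promoters (83.3%), in 23 of 25 mitosis promoters (92%) and 18 of 25 replication promoters (72%), against 35.6% of the tested genes with a promoter.

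Genes of DNA replication and of mitosis went down under MPP in 2D and did not go down as a group in 3D. In 2D all 30 replication genes and all 30 mitosis genes fell, with median log2 changes of -1.14 and -1.21. In 3D 12 replication genes rose and 3 fell, and 2 mitosis genes fell and none rose, with medians of 0.34 and -0.15. The difference was higher in 28 of 30 genes of each list and lower in none. Replication-dependent histone genes, listed apart, went down in both cultures. Of 6 tested, 4 fell in 2D and 4 in 3D, with medians of -1.38 and -1.15. MCM2, a subunit of the replicative helicase, read 3125, 2768, 2709 and 3069.7 in untreated 2D and 1239, 1245, 1308 and 1299 with MPP. In 3D it read 1888, 1807, 1483 and 2011 without and 1841, 2634, 3109 and 2319 with MPP. The 2D groups stood apart, and in 3D replicate 1 of the treated group lay inside the untreated range while replicate 3 was the highest. MCM2 fell 2.29-fold in 2D and rose 1.36-fold in 3D, a difference of 1.64 (SE 0.17, limma adjusted p = 2.36e-07).

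Other subunits and regulators of replication shared this spread. MCM6, of the same helicase, fell from 2595 ± 178 to 1372 ± 65.6 in 2D and rose from 1293 ± 64.0 to 2163 ± 472 in 3D without overlap, a difference of 1.64 (SE 0.15, limma adjusted p = 4.56e-08). CDC6, which loads the helicase, read 364, 449.7, 413 and 440.0 in untreated and 434, 507, 936 and 544 in treated 3D, where the groups overlapped. It fell 4.33-fold in 2D, and its difference was 2.59 (SE 0.25, limma adjusted p = 1.19e-07). The 3D rise of CDC6 (limma adjusted p = 0.0391) was not called with array weights, without any 1 of untreated 3D replicates 1 or 3 or MPP-treated 3D replicates 3 or 4, or with the 3 libraries that stood apart left out (limma adjusted p = 0.0529 to 0.545). E2F1, a transcription factor of entry into S phase, had a difference of 1.97 (SE 0.24, limma adjusted p = 2.55e-06), and the sliding clamp PCNA fell 2.23-fold in 2D and had a 3D effect of -0.03 (95% interval -0.21 to 0.15).

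Among mitosis genes the 3D effect was mostly small. TOP2A, the topoisomerase that untangles chromosomes, read 9775, 9098, 8343 and 9019.5 and 3821, 3833, 3306 and 4072 in 2D, and 4035, 4371, 4120.4 and 4019.6 and 3282, 3538, 4972 and 3115 in 3D. The 2D groups stood apart, and in 3D only replicate 3 of the treated group rose above the untreated libraries. Its 3D effect of -0.17 was not called, but a 3D fall was called without MPP-treated 3D replicate 3, or with the 3 libraries that stood apart left out (limma adjusted p = 0.00281 to 0.00894). Its difference was 1.10 (SE 0.15, limma adjusted p = 1.17e-05). TPX2, a spindle assembly factor, and CDCA8, of the chromosomal passenger complex, had differences of 1.19 (SE 0.15, limma adjusted p = 4.77e-06) and 1.41 (SE 0.18, limma adjusted p = 5.85e-06). MKI67, a marker of cycling cells, fell in both cultures, 3.41-fold in 2D and 1.62-fold in 3D, a difference of 1.08 (SE 0.23, limma adjusted p = 0.00231). CCND1, the D-type cyclin, fell in both, and its difference (-0.47 (SE 0.18, limma adjusted p = 0.0802)) was called with array weights, without MPP-treated 3D replicate 3, or with the 3 libraries that stood apart left out (limma adjusted p = 0.00218 to 0.017).

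The 3D side of the cell-cycle result rested on single libraries. The median deviation of the replication list from the mean of all libraries was -0.26, 0.20, 0.47 and 0.028 in MPP-treated 3D replicates 1 to 4, and that of the mitosis list -0.78, -0.34, 0.078 and -0.43. Without replicate 3 of that group, 7 and not 12 replication genes rose in 3D and 12 and not 2 mitosis genes fell. Without replicate 1, 19 replication genes rose. With the 3 libraries that stood apart left out, 5 replication genes rose and 14 mitosis genes fell, and the 3D rises of MCM2 and E2F1 were not called (limma adjusted p = 0.146 and 0.0865). That set leaves out the treated 3D library highest in these lists and keeps the lowest, replicate 1, so it favours falls. The 2D counts were the same in each case, all 30 down in both lists. The difference was higher in 28 genes of each list without replicate 3, and in 27 replication and 25 mitosis genes with the 3 libraries left out.

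**Figure D4:**
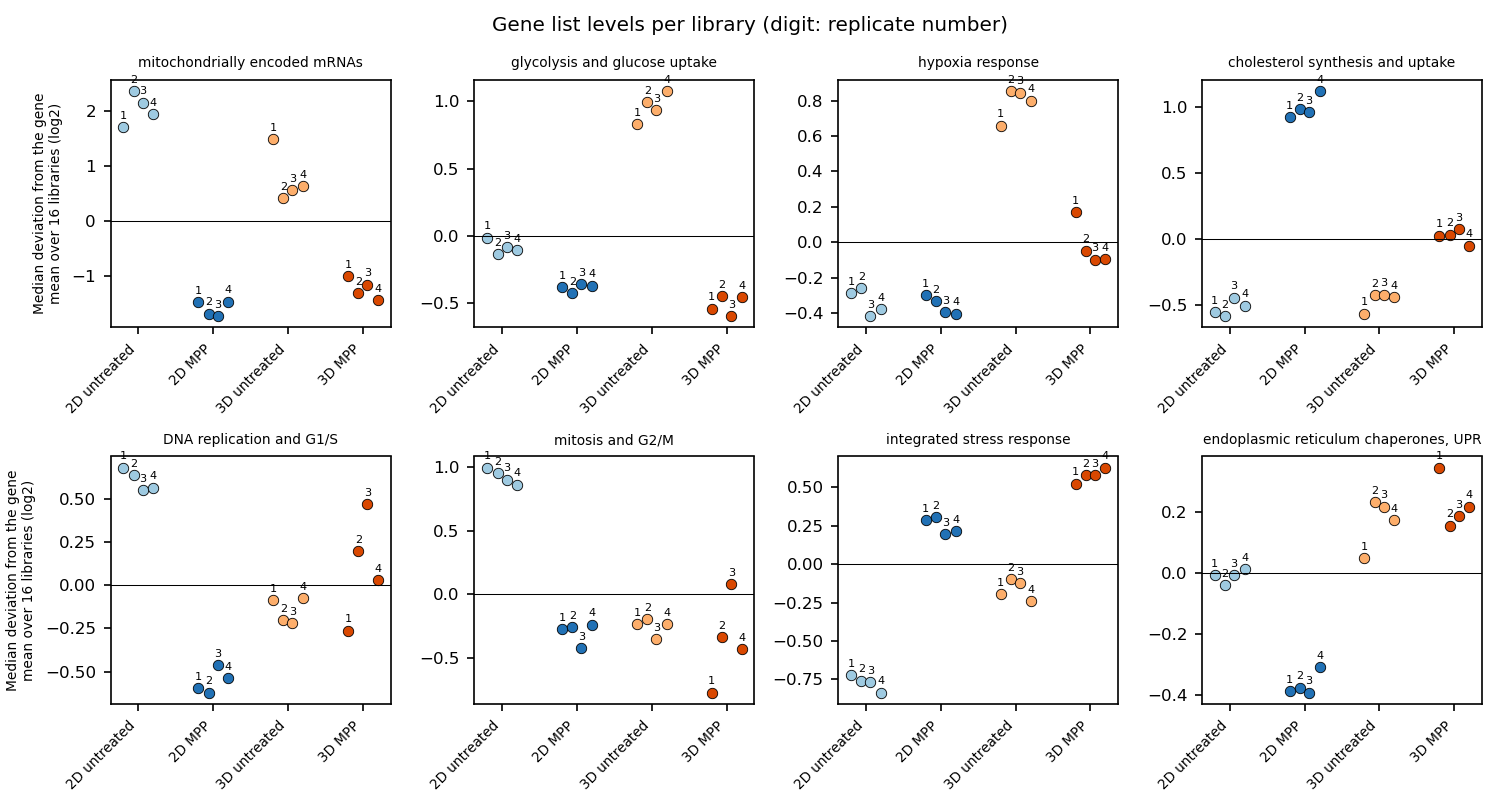
Median deviation of the members of 8 gene lists from their mean over all libraries (y axis, log2 scale), 1 digit for each library giving its replicate number, by group (x axis). In the replication and mitosis panels the MPP-treated 3D libraries spread widely, replicate 3 highest and replicate 1 lowest, while the treated 2D libraries lie together below the untreated ones.

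ER chaperones, which fold secreted proteins, fell in 2D and mostly not in 3D. Of 21 tested genes, 15 fell and 3 rose in 2D, while 3 fell and 7 rose in 3D, and the difference was higher in 12 and lower in 1, with a median of 0.48. With the 3 libraries that stood apart left out it was higher in 7. CALR, a calcium-binding chaperone, read 17971, 16675, 17063 and 17205 and 9251, 9953, 10267 and 9708 in 2D without overlap, and 13236, 13796, 14729 and 15579 and 14749.7, 15936, 15329.8 and 15441 in 3D with overlap. It fell 1.76-fold in 2D, its 3D effect was 0.10 (95% interval -0.024 to 0.23), and the difference was 0.92 (SE 0.086, limma adjusted p = 8.33e-08). A 3D rise of CALR was called with equal library totals, equal nuclear totals or quantile normalisation (limma adjusted p = 0.0166 to 0.0418). PDIA4, a disulfide isomerase, fell from 9466 ± 454 to 6223 ± 271 in 2D and rose from 10118 ± 501 to 11675 ± 876 in 3D, a difference of 0.81 (SE 0.091, limma adjusted p = 1.06e-06). The 3D rise of PDIA4 was not called without any 1 of untreated 3D replicate 1 or MPP-treated 3D replicate 3, or with the 3 libraries that stood apart left out (limma adjusted p = 0.0553 to 0.213).

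HSPA5, the main ER chaperone, fell 2.04-fold in 2D and read 17568, 18583, 19437 and 17824 and 19019.8, 13395, 14446 and 15703 in 3D, where the groups overlapped and the effect was -0.24 (SE 0.082, limma adjusted p = 0.0258). Its difference was 0.78 (SE 0.12, limma adjusted p = 4.01e-05). The small 3D fall was not called with equal library totals, equal nuclear totals or quantile normalisation, without any 1 of untreated 3D replicates 2 or 3 or MPP-treated 3D replicates 2 or 3, or with the 3 libraries that stood apart left out (limma adjusted p = 0.054 to 0.172). XBP1, the transcription factor of the ER stress sensor IRE1, was the exception of lower difference, -0.63 (SE 0.094, limma adjusted p = 4.72e-05). It rose from 1748 ± 55.2 to 2788 ± 88.0 in 2D and had a 3D effect of 0.048 with a 95% interval of -0.09 to 0.19.

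The genes that define a catecholamine neuron answered MPP in each of the possible ways, and 7 of 19 tested members differed, 3 higher and 4 lower. TH, tyrosine hydroxylase, the rate-limiting enzyme, read 319.7, 359.8, 319 and 367 in untreated 2D and 583, 725, 560.1 and 514 with MPP. In 3D it read 5845, 5119, 4759 and 6616 and 4503, 4264, 4269 and 3927. The groups did not overlap in either culture, so that TH rose 1.73-fold in 2D and fell 1.31-fold in 3D, a difference of -1.18 (SE 0.15, limma adjusted p = 5.52e-06), and it stayed above every 2D library in treated 3D. DDC, which makes dopamine from L-DOPA, read 13558, 13830.1, 14346 and 14838 and 2166, 2995, 3597 and 2646 in 3D, and 2849, 2795, 2820.2 and 2517 and 2207, 2286, 2463 and 2249 in 2D. It fell 5.04-fold in 3D, and the treated cultures overlapped in level. The 2D change of -0.25 (SE 0.10, limma adjusted p = 0.056) came without overlap, and the difference was -2.08 (SE 0.14, limma adjusted p = 5.5e-10). The 2D change of DDC was called with equal nuclear totals, array weights, DESeq2 or a replicate block, without any 1 of untreated 2D replicate 4 or MPP-treated 3D replicates 1 or 3, or with the 3 libraries that stood apart left out (adjusted p, by limma unless another tool is named, 0.0065 to 0.0491). DBH, which turns dopamine into noradrenaline, showed no called difference (-0.084 (SE 0.12, limma adjusted p = 0.693)), with effects of -0.21 in 2D and -0.29 in 3D.

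Transporters of monoamines and of MPP itself were among them. SLC18A2, the vesicular monoamine transporter of neurons, read 3267, 2929, 3279.8 and 3039.7 in untreated and 5177, 5977, 7211 and 5664 in treated 3D, with replicate 3 highest, and rose 1.91-fold without overlap. In 2D it rose 1.18-fold (limma adjusted p = 0.039), and the difference was 0.69 (SE 0.13, limma adjusted p = 0.000461). Its 2D rise was not called with equal nuclear totals or edgeR, or without any 1 of untreated 2D replicates 1, 2 or 4 or MPP-treated 2D replicates 1, 2 or 3 (adjusted p, by limma unless another tool is named, 0.051 to 0.143). SLC18A1, the vesicular transporter of endocrine cells, moved the other way: it fell from 32645 ± 1593 to 4945 ± 563 in 3D and from 2433 ± 148 to 1726 ± 172 in 2D, a difference of -2.23 (SE 0.12, limma adjusted p = 5.19e-12). SLC6A2, the noradrenaline transporter through which MPP can enter, read 2577, 2791, 2648 and 2709.8 and 1347, 1365, 1498 and 1640.2 in 2D, but 101, 164, 112 and 127 and 99.3, 119, 172 and 138 in 3D. It fell 1.84-fold in 2D without overlap, the 3D groups overlapped at low levels, and the difference was 0.94 (SE 0.21, limma adjusted p = 0.0036). It was 0.59, still called, with the 3 libraries that stood apart left out. SLC29A4, a plasma membrane monoamine transporter that also carries MPP, fell 1.36-fold in 2D and 2.29-fold in 3D, a difference of -0.76 (SE 0.084, limma adjusted p = 8.59e-07). MAOA, which breaks monoamines down, had no called difference (0.17 (SE 0.11, limma adjusted p = 0.374)).

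General neuronal genes differed in both directions, 4 of 31 higher and 7 lower, with a median of -0.11. The 4 higher were 1 or 2 in 11 of the alternatives. MAP2, a dendritic microtubule protein, was not called in either culture (0.026 in 2D and -0.081 in 3D), and STMN2, a growth cone protein, rose alike (0.44 in 2D and 0.57 in 3D). TUBB3, neuronal tubulin, fell 1.51-fold in 3D, where replicate 1 of the treated group was lowest, and had a 2D effect of -0.053 (95% interval -0.24 to 0.13). Its difference was -0.54 (SE 0.13, limma adjusted p = 0.00438), and limma adjusted p = 0.0569 after quantile normalisation. The granin CHGB, a protein of dense-core vesicles, read 215736, 196587, 208072 and 211111 and 99144, 109088, 106775 and 99799 in 2D, and 42025, 46526, 37248 and 46935 and 39985, 46279.8, 44605 and 44729 in 3D. It fell 2.01-fold in 2D, the overlapping 3D groups lay below both, and the difference was 1.03 (SE 0.11, limma adjusted p = 4.23e-07). VGF, another dense-core vesicle protein, did the reverse: it rose from 188184 ± 6903 to 402170.0 ± 5365 in 2D and stood at 401752 ± 46709 and 426458 ± 24343 in 3D, a difference of -1.0 (SE 0.12, limma adjusted p = 2.37e-06). Quantile normalisation moved these 2 differences to 0.49 for CHGB and -1.75 for VGF, both still called, and VGF then also rose in 3D (limma adjusted p = 0.0179).

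**Figure D5:**
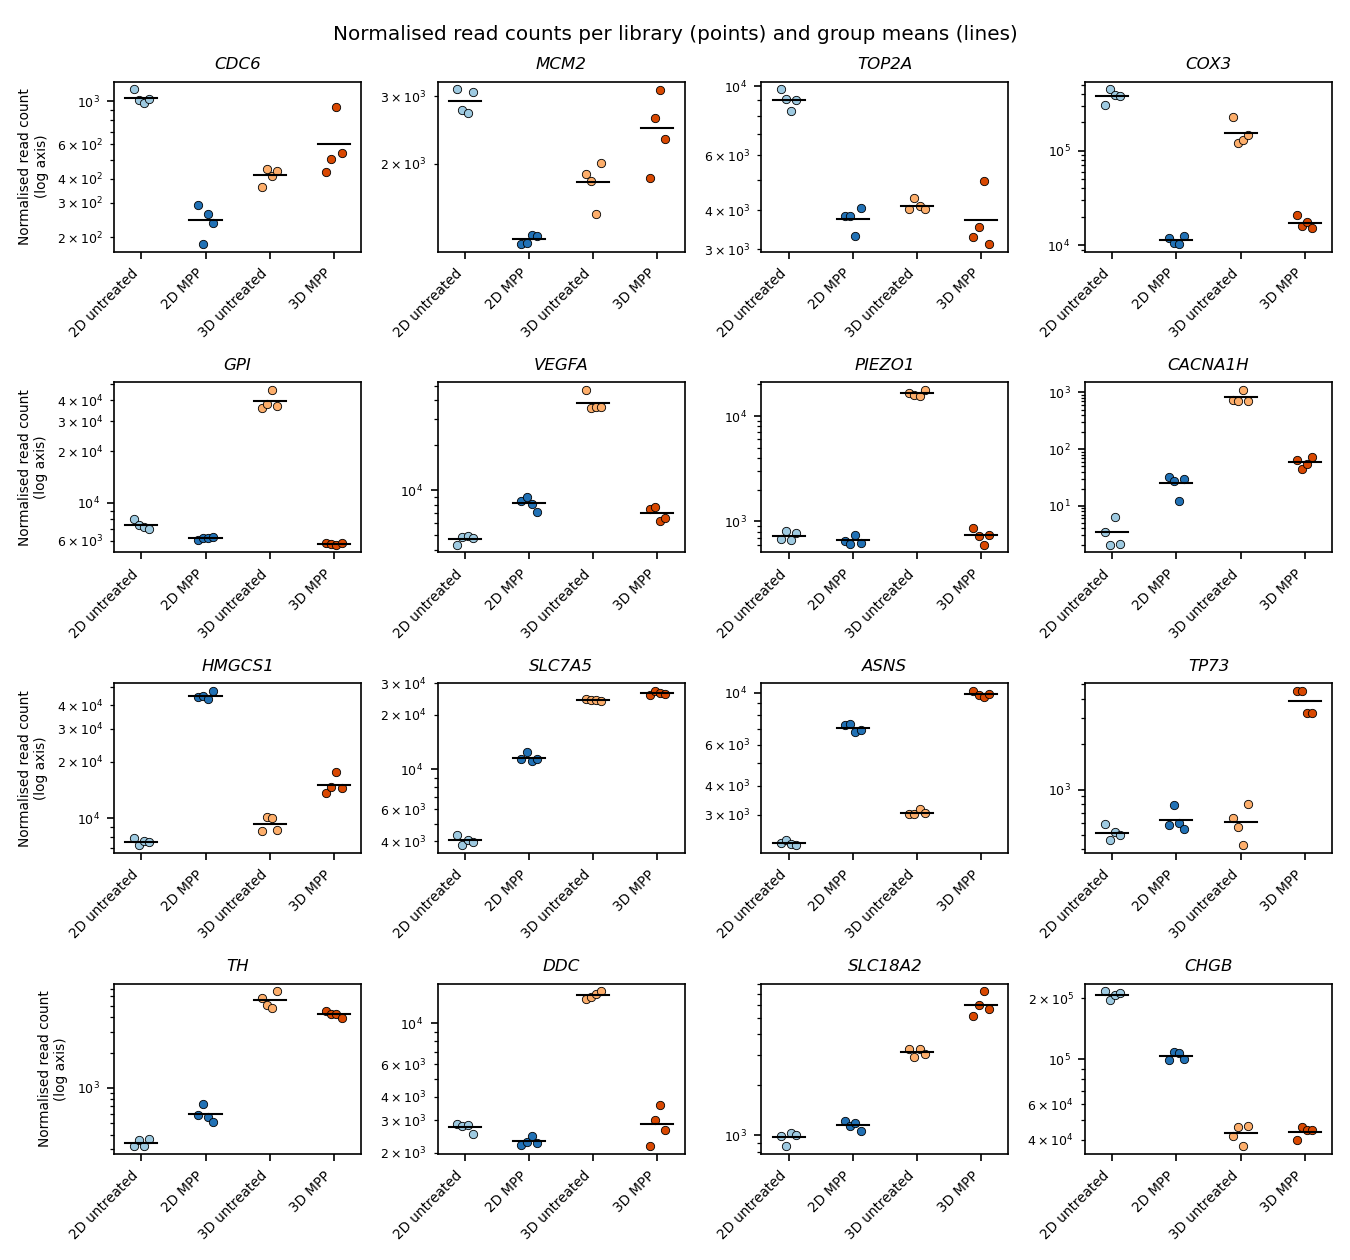
Normalised counts (y axis, log scale) of 16 genes in the 4 groups (x axis), 1 point for each library and a line for each group mean. GPI, VEGFA and PIEZO1 are high only in untreated 3D, HMGCS1 is highest in treated 2D, CDC6 and MCM2 are lowest in treated 2D, and ASNS and TP73 show the alike response and the response in 3D.

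Among genes of opposite effects the largest differences were falls in 3D, of genes with few reads in untreated 2D or with a high level in untreated 3D. CACNA1H, a T-type calcium channel, read 752, 714, 1107 and 698 in untreated 3D and 63.2, 45.5, 53.7 and 72.7 with MPP. In 2D it read 3.45, 2.06, 6.28 and 2.12 and 32.3, 27.0, 12.2 and 29.9. Neither culture had overlapping groups, and the difference was -6.34 (SE 0.47, limma adjusted p = 2.42e-09). PRDM16, a transcriptional regulator, read 12.1, 24.7, 21.2 and 18 and 201, 208, 186 and 236 in 2D, and 268, 176, 211 and 140.2 and 63.2, 67.8, 75.9 and 44.2 in 3D. Treated 2D thus stood at the level of untreated 3D, and the difference was -5.06 (SE 0.35, limma adjusted p = 7.55e-10). The hyaluronan synthase HAS1 had a difference of -4.70 (SE 0.69, limma adjusted p = 3.88e-05), whose size, like that of CACNA1H, depends on the pseudocount. The difference of the water channel AQP1, which fell from 26279 ± 3511 to 3064 ± 383 in 3D and rose 1.28-fold in 2D, was -3.46 (SE 0.14, limma adjusted p = 5.45e-14).

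In the other direction the genes of largest difference were ZNF90, a zinc finger gene, and 3 genes of DNA replication and repair. CDC6 is given above. BRCA1, which acts in repair by homologous recombination, read 1192, 1044, 881 and 1195 and 398, 363, 328 and 388 in 2D, and 407, 315, 375 and 271 and 413, 717, 741 and 599 in 3D. The groups did not overlap in either culture, though treated 3D replicate 1 lay close to the untreated libraries, and the difference was 2.37 (SE 0.23, limma adjusted p = 1.29e-07). NEIL3, a DNA glycosylase, fell 2.89-fold in 2D, its 3D groups overlapped, and its difference was 2.37 (SE 0.37, limma adjusted p = 7.12e-05). ZNF90, which belongs to a family of near-identical genes whose reads may be split, read 46.5, 47.0, 47.7 and 22.4 and 70.4, 49.1, 110.2 and 112 in 3D and had a difference of 3.03 (SE 0.46, limma adjusted p = 5.54e-05). The 3D rise of ZNF90 was not called without any 1 of untreated 3D replicate 4 or MPP-treated 3D replicates 3 or 4 (limma adjusted p = 0.0585 to 0.0718). That of NEIL3 was not called with array weights, without untreated 3D replicate 3, or with the 3 libraries that stood apart left out (limma adjusted p = 0.0674 to 0.662).

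Some genes of 3D response showed a 2D effect bounded near 0. PIEZO1, a mechanically gated ion channel, read 16692, 15898, 15536 and 17680.4 in untreated 3D and 869.5, 732, 600.0 and 739 with MPP. In 2D it read 677, 806, 665 and 775 and 657, 615, 742 and 622. Treated 3D fell to the level of the 2D libraries, whose groups overlapped, and the difference was -4.34 (SE 0.14, limma adjusted p = 2.84e-15). ESPN, an actin-bundling protein, fell 9.71-fold in 3D, and its 2D effect of 0.23 was called with equal library totals or array weights (limma adjusted p = 0.0284 to 0.0331). SP6, a transcription factor, fell 6.84-fold and CDKN1C, an inhibitor of cyclin-dependent kinases, 6.63-fold, with 2D effects of 0.12 and -0.14.

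Rises in 3D and not in 2D were fewer under the deposited scaling, on which the balance of signs over all genes depends. RENBP, a renin-binding epimerase, BAHCC1 and the factor GATA5 rose 2.76-fold, 2.39-fold and 2.49-fold in 3D, with 2D effects of 0.16, -0.025 and 0.07. TP73, of the p53 family, read 651, 562, 425 and 805 in untreated 3D and 4532, 4498, 3237 and 3247 with MPP without overlap. In 2D it read 589, 465, 519.9 and 499.6 and 579.8, 791, 598 and 548, with overlap, and its difference was 2.41 (SE 0.23, limma adjusted p = 8.75e-08). The 2D effect of TP73 (0.27, 95% interval -0.063 to 0.60) was called with array weights (limma adjusted p = 0.0495). The p53 target CDKN1A, a cell-cycle inhibitor, rose alike (0.96 in 2D and 1.02 in 3D), while BTG2, an antiproliferative gene, rose 1.54-fold in 2D and fell 1.51-fold in 3D, a difference of -1.22 (SE 0.14, limma adjusted p = 1.98e-06). Of the 26 genes of the p53 list, 2 differed in each direction.

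Genes of 2D response with a bounded 3D effect were led by 2 kinds. Those that rose were PNPLA3, a lipase of lipid droplets, COX6B2, an isoform of a cytochrome c oxidase subunit, the adhesion molecule ICAM1 and SLC7A5. ICAM1 read 396, 257, 272 and 322 and 974, 1089, 772 and 954 in 2D, and 331, 404, 578 and 325 and 562, 493, 426 and 346 in 3D, where the groups overlapped. The difference was -1.44 (SE 0.25, limma adjusted p = 0.000328) for it, -1.65 (SE 0.26, limma adjusted p = 8.95e-05) for PNPLA3 and -1.63 (SE 0.19, limma adjusted p = 1.6e-06) for COX6B2. Those that fell were the kinetochore genes SKA3 and ZWINT, the helicase BRIP1 and RTKN2, with differences of 2.21 (SE 0.25, limma adjusted p = 1.09e-06), 1.97 (SE 0.26, limma adjusted p = 8.46e-06), 2.11 (SE 0.27, limma adjusted p = 6.25e-06) and 1.79 (SE 0.24, limma adjusted p = 1.04e-05). BRIP1 read 272, 418, 738 and 385 in treated 3D, a spread of the same kind as in the replication list.

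Responses of the same direction and different size included large ones. LAMP3, a lysosomal membrane protein, read 63.8, 61.7, 88.7 and 27.5 and 129, 137, 158 and 174 in 2D, and 21.1, 30.5, 28.1 and 11.9 and 251, 217, 278 and 193 in 3D, without overlap. It rose 2.64-fold and 10.3-fold, a difference of 1.97 (SE 0.44, limma adjusted p = 0.00294). The apolipoprotein APOL4 rose 1.56-fold and 3.48-fold, a difference of 1.16 (SE 0.15, limma adjusted p = 8.98e-06). CDHR1, a photoreceptor cadherin, rose 6.88-fold in 2D and 1.71-fold in 3D, where groups overlapped, a difference of -2.01 (SE 0.31, limma adjusted p = 6.95e-05). The falls that were larger in 3D were led by AQP10, an aquaglyceroporin, and KISS1R, the kisspeptin receptor, with differences of -3.97 (SE 0.55, limma adjusted p = 1.71e-05) and -2.63 (SE 0.28, limma adjusted p = 5.8e-07). KISS1R read 1960.4, 1884, 1670.1 and 2181 in untreated 3D and 81.3, 93.7, 169 and 94.8 with MPP, and 435, 387, 373 and 431 and 153, 94.3, 133 and 191 in 2D.

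Immediate early genes, which report recent signalling, fell more in 3D: 13 fell and 3 rose of 22 tested there, against 4 and 8 in 2D, and the difference was lower in 11 and higher in none, with a median of -0.63. JUNB read 2344, 3183, 2958 and 3058 and 1183, 1264, 1179.7 and 1194 in 3D without overlap, and 2412, 1869, 2025 and 1906 and 2373, 2417, 2208 and 2073 in 2D with overlap, a difference of -1.40 (SE 0.13, limma adjusted p = 1.03e-07). Its 2D rise was called with equal library totals or array weights (limma adjusted p = 0.044 to 0.0477). JUND rose 1.59-fold in 2D and fell 1.20-fold in 3D, a difference of -0.94 (SE 0.10, limma adjusted p = 5.19e-07), and the 3D fall was not called with equal library totals or quantile normalisation (limma adjusted p = 0.0618 to 0.0783). FOS fell in both, 1.65-fold and 3.04-fold. The list was not uniform, since EGR1 fell alike (-1.09 in 2D and -1.34 in 3D) and NR4A1 rose alike (1.07 in 2D and 1.15 in 3D).

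Of 10 peptide hormones of stress, 6 differed, all lower, with a median of -0.58. CARTPT, a neuropeptide, fell from 22281 ± 2800.2 to 2673 ± 185 in 3D and from 469 ± 95.8 to 283 ± 67.1 in 2D, where the groups overlapped, a difference of -2.32 (SE 0.20, limma adjusted p = 3.68e-08). Of 35 genes of extracellular matrix and adhesion, 8 differences were lower and 3 higher. COL5A1, a fibrillar collagen chain, fell from 6354 ± 337 to 2011 ± 126 in 3D while its 2D effect was -0.10 (95% interval -0.25 to 0.047), a difference of -1.56 (SE 0.10, limma adjusted p = 2.59e-10).

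Among the alike responses, the genes that rose most were GDF15, FAM43A and AARS1. GDF15 read 7886, 7069, 7607 and 7369 and 50269.6, 55918, 45547 and 48538 in 2D, and 5449.5, 7012, 5883 and 6683 and 56092, 36834, 26742 and 35876 in 3D. The groups stood far apart in both cultures, and the difference was -0.15 with a 95% interval of -0.55 to 0.26. FAM43A rose 3.59-fold and 3.93-fold and AARS1 3.11-fold and 3.31-fold. The alike falls were SOX6, a transcription factor, 2.48-fold and 2.50-fold; SFPQ, a splicing factor, 2.63-fold and 2.26-fold; and ARRDC4, an arrestin-domain protein, 2.33-fold and 2.51-fold. SOX6 started at 90.9 in 2D and 520.1 in 3D, so an equal fold there was an unequal loss of counts. For SOX6 the bound was narrow: its interval of -0.58 to 0.55 passed 1.5-fold in 25 of the alternatives, and those of GDF15, EGR1 and SFPQ in 10, 7 and 5.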

How the data were processed

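Sequencing of poly-A RNA gave 16 libraries, in 4 groups of 4 taken from their titles. The deposited values are a normalised signal. The submitters' processing notes name build GRCh38.p13 and the tools CASAVA 1.8.2, DESeq2, featureCounts, FastQC and STAR. Their settings, annotation and handling of strand were not given in the sources used here, so overlapping and antisense genes cannot be told apart. Every value was a whole multiple of the step of its library within a tolerance of 0.01 reads (100.0%), so whole reads were recovered, 24589435 to 46359070 per library. No pair of libraries within a group agreed within sampling noise (chi-square per degree of freedom at least 6.58 over 24 pairs).

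The test took the 16984 of 19898 genes that reached a value of 10 in 4 libraries or more, as log2(value + 1) with limma 3.58.1 (R 4.3.3) and a mean-variance trend, in 1 fit of 4 groups. The fit was tested on simulated data. An effect bounded within 1.5-fold is one whose 95% interval lies inside. The unit differed from raw counts, so edgeR 4.0.16 and DESeq2 1.42.0 served only as alternatives, on the recovered reads, where edgeR called 2571 genes for the difference and DESeq2 3041. Other alternatives were 3 scalings, other pseudocounts and filters, robust and weighted fits, a replicate block, each library left out and, chosen after seeing the data, 3 libraries left out together.

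The genes and the 32 lists (820 symbols, 35 not matched) were chosen with earlier results of these data known. Named genes had a mean of 50 or more and an approved symbol, and were taken by size of the difference: 4 in each direction of the opposite, 3D and not 2D, and 2D and not 3D classes, the latter 2 with a bounded other effect, 2 for each combination of direction and larger culture, 3 rising and 3 falling alike, the 2 members of smallest p in each of the 10 lists with the largest share called, and TH, SLC18A2, SLC6A2, DDC, MAP2, MKI67, VEGFA, LDHA, HMGCS1, ASNS and COX3. A few genes, 1 of them taken by this rule, are not reported here. Chosen by role after their values were seen were ND1, ND3, ND6, SLC2A1, HK2, PGK1, SLC16A3, LDHB, BNIP3, P4HA1, EPO, EPAS1, HIF1A, DDIT4, ATF4, DDIT3, TRIB3, CHAC1, PSAT1, SHMT2, STC2, MVD, SQLE, INSIG1, SREBF2, MCM2, PCNA, E2F1, CCND1, TOP2A, HSPA5, XBP1, DBH, SLC18A1, MAOA, SLC29A4, CHGB, TUBB3, STMN2, TP73, BTG2, CDKN1A, STC1, FOS, EGR1, NR4A1, COL5A1 and every gene of the closing section that the report does not name, and the promoters of ASNS, CHAC1 and LDHA. Promoters came from RefSeq, GRCh38.p14, matched by gene identifier for 13114 tested genes, and motifs were searched as plain letters on both strands.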

Additional observations from a re-analysis of the deposited data

Results flagged for a closer look

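The MPP effect differed between the cultures, by the test of the difference itself (limma, adjusted over all genes), in 91 of the genes named. It was higher in 3D than in 2D for 35 of them. Most of these genes were named for a large difference or chosen after their values were seen. The count and its split by sign therefore reflect that choice, beside 15.3% called over all genes. The difference of effects was 3.03 for ZNF90, 2.59 for CDC6, 2.41 for TP73, 2.37 for BRCA1, 2.37 for NEIL3, 2.22 for COX2, 2.21 for SKA3 and 2.11 for BRIP1. Next in size it was 1.97 for ZWINT, 1.97 for E2F1, 1.97 for LAMP3, 1.92 for COX3, 1.79 for RTKN2, 1.76 for ND1, 1.64 for MCM2 and 1.64 for MCM6. It came to 1.60 for ND6, 1.41 for CDCA8, 1.30 for RENBP, 1.28 for BAHCC1, 1.25 for GATA5, 1.19 for TPX2 and 1.16 for APOL4. Below these it was 1.13 for PCNA, 1.10 for TOP2A, 1.08 for MKI67, 1.03 for CHGB, 0.94 for SLC6A2, 0.92 for CALR, 0.81 for PDIA4 and 0.78 for HSPA5. Smaller values were 0.69 for SLC18A2, 0.66 for ND3, 0.48 for EPAS1 and 0.37 for TRIB3.

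It was lower in 3D for the other 56. The most negative values were -6.34 for CACNA1H, -5.64 for EPO (a size that depends on the pseudocount), -5.06 for PRDM16, -4.70 for HAS1, -4.34 for PIEZO1, -3.97 for STC1, -3.97 for AQP10 and -3.51 for ESPN. Values of the next genes were -3.46 for AQP1, -3.26 for SLC7A11, -3.25 for VEGFA, -2.89 for SP6, -2.63 for KISS1R, -2.59 for CDKN1C, -2.51 for GPI and -2.33 for HK2. The difference was -2.33 for STC2, -2.32 for CARTPT, -2.23 for SLC18A1, -2.08 for DDC, -2.01 for ALDOA, -2.01 for CDHR1, -1.93 for MVD and -1.89 for HMGCS1. Then followed -1.80 for SHMT2, -1.80 for NDRG1, -1.79 for CHAC1, -1.72 for LDHA, -1.65 for PNPLA3, -1.63 for COX6B2, -1.62 for DDIT4 and -1.60 for PGK1. Further values were -1.56 for COL5A1, -1.52 for SLC16A3, -1.49 for FASN, -1.48 for DHCR7, -1.47 for P4HA1, -1.44 for ICAM1, -1.40 for SLC7A5 and -1.40 for JUNB. In the middle range it was -1.35 for SLC2A1, -1.31 for SQLE, -1.22 for BTG2, -1.18 for INSIG1, -1.18 for TH, -1.14 for BNIP3 and -1.14 for ACSS2. Lower in size were -1.0 for VGF, -0.94 for JUND, -0.92 for ATF4, -0.89 for FOS, -0.80 for SREBF2, -0.76 for SLC29A4 and -0.68 for DDIT3. Closer to 0 were -0.63 for XBP1 and -0.54 for TUBB3.

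In 21 cases 1 library of a group of 4 stood so far from the other 3 that its gap exceeded the 95% critical value of Dixon's ratio. Chance does so in about 1 in 20 groups. Across the 4 groups of 109 named genes that rate alone gives a count of this order, so the cases only describe single libraries. In untreated 3D the library was high for CACNA1H (1107), DHCR7 (10228), VEGFA (46888), ASNS (3162), INSIG1 (2063) and ND1 (239046), and low for ZNF90 (22.4) and MCM6 (1198), all in normalised counts. For VEGFA and ND1 it was replicate 1, whose share of mitochondrial mRNA reads (6.84%) also stood out, and for CACNA1H, DHCR7, ASNS and INSIG1 replicate 3. In MPP-treated 3D it was high for KISS1R (169), JUNB (1264) and MVD (7060.1) and low for CHAC1 (1587) and PSAT1 (2735), the last 2 in replicate 1. In MPP-treated 2D it was high for DHCR7 (25506), SQLE (11685) and MAP2 (12783), all in replicate 4, which was low for GATA5 (89.8). In untreated 2D it was high for SLC7A11 (39.2) and TUBB3 (26178) and low for DDC (2517). The differences of the called genes among these were also called without the library concerned.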

How the results depend on the processing

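The count of genes whose MPP effect differed between the cultures was 2602 and lay between 2142 and 2912 when any 1 library was left out and between 2329 and 3181 in the other alternatives. Each of the 5 kinds of response stayed within 1.5 times its count in every alternative, opposite effects between 275 and 422, with 1 exception among the counts: with equal nuclear totals 2128 genes were higher, against 1189. Under the same scaling 2240 of the 2602 genes were called with the same sign and none with the reverse; edgeR turned 2 of them and DESeq2 1. Of list medians, 840 values in alternatives stayed within the spread, 81 moved and 7 reversed. These were not spread evenly: with equal nuclear totals 21 of the 32 list medians moved, 2 reversed and 9 stayed.

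All reversals were of small values. The difference of SOX6 was 0.090 with equal nuclear totals, 0.11 with quantile normalisation, 0.0011 in edgeR and 0.061 with the 3 libraries left out, and -0.15 to 0.11 with 1 library left out. HIF1A reversed to 0.031 with equal nuclear totals, 0.0055 with quantile normalisation and 0.048 without untreated 3D replicate 3, its highest 1-library value (lowest -0.18). DBH and the catecholamine list median (DBH is its middle gene) were 0.020 with equal nuclear totals. The metallothionein list median was 0.096 with equal nuclear totals, 0.0067 in edgeR and 0.032 with the 3 libraries left out, and -0.23 to 0.056 with 1 library left out. With 1 library left out MAP2 ranged -0.16 to 0.00497, AARS1 -0.019 to 0.21, NR4A1 -0.075 to 0.21 and GDF15 -0.34 to 0.015, and ARRDC4 was 0.032 with the 3 libraries out. The cause of these was not tested.

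With the replicate number as a block, 2436 genes were called, 2367 of them in common. Same-numbered libraries had correlations of deviations from -0.28 to 0.26, above 0.1 in 8 of 24 pairs. Differently numbered libraries ranged from -0.37 to 0.37. Deviations from a group mean offset each other within the group. These values therefore cannot tell whether equal numbers mark a shared batch, which the labels do not state. Depth limits genes near the filter: the median SE of the difference was 0.175, and changes of genes with a few reads, such as EPO in 2D, were not detectable.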

Other observations

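Other gene groups are given by their counts, beside 15.3% called over all genes. Of 23 genes of the tricarboxylic acid cycle 5 differed, all higher: citrate synthase CS (difference 0.30), IDH3A (0.47), SUCLG1 (0.45), fumarase FH (0.50) and the pyruvate carboxylase gene PC (0.50). PC was called up in both cultures, CS and SUCLG1 in 3D, and IDH3A and FH were called down in 2D. Of 30 genes for the upkeep, transcription and decay of mitochondrial nucleic acids, 4 were higher and 2 lower. MGME1, an exonuclease of mitochondrial DNA replication, fell in 2D and rose in 3D (effects -0.42 and 0.81, difference 1.22, limma adjusted p = 4.92e-06). PNPT1, which degrades mitochondrial RNA, rose in 3D (difference 0.57), and its partner helicase SUPV3L1 rose in 2D (difference -0.43). The transcription factor TFAM had a difference of 0.42 that was not called (limma adjusted p = 0.0599).

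Of 30 autophagy and lysosome genes 5 were higher and 2 lower. Lysosomal CTSD and LAMP1 rose in 3D (0.42 and 0.39) and not in 2D, and the autophagy receptor SQSTM1 rose in 2D (0.50) and not in 3D, each with the difference called. Of 18 genes of interferon, NF-kappaB and antigen presentation 5 differed, all lower, among them NFKB2 (effects 0.26 in 2D and -0.59 in 3D). Of 19 familial Parkinson disease genes 1 was higher and 2 lower, while PINK1 rose alike (0.31 and 0.30). Of 18 retinoic acid genes 2 were higher and 3 lower, of 20 noradrenergic transcription factors 2 and 3, of 9 metallothionein and zinc export genes 2 and 1, and of 19 cytosolic and mitochondrial chaperones 1 and 1. None of 6 replication-dependent histone genes was called for the difference, while 4 were called down in 2D and 4 in 3D. Of markers of other cells 1 of 9 glia, 2 of 12 mesenchymal and 3 of 7 blood and endothelial genes tested were lower and none higher.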
